A study of Arabidopsis thaliana with 6 samples.

Results

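The aquaporin family of Arabidopsis thaliana was examined in rosette RNA of *ref4-3* and wild-type plants. Its 35 genes were taken by their AGI locus identifiers by the established division of the family into 13 *PIP*, 10 *TIP*, 9 *NIP* and 3 *SIP* genes, and all 35 were found among the 36796 genes of the count table. Of these, 28 had enough counts to be tested and 7 did not. Members are named here by subfamily, subgroup and number separated by a point (*PIP2.1*, also written with a semicolon), each with its locus where its values begin. Both genotypes are in the Col-0 ecotype. The mutant carries *ref4-3*, a semidominant point mutation in *MED5b* (a tail subunit of Mediator, the coregulator that links transcription factors to RNA polymerase), and the wild type carries no introduced allele or treatment. The series was made to ask whether altered H3K27me3 goes with altered transcript levels in this mutant. Each genotype had 3 libraries, and each library came from the pooled shoots of 5 unbolted plants that were 21 days old, grown in soil with 16 h of light a day and collected 6 h after the light came on. The *ref4-3* allele is 1 mutation and each library is a pool, so that the spread between libraries is one between pools and not between plants.

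Aquaporins are membrane channels that pass water and, in some members, small uncharged solutes such as glycerol, ammonia, hydrogen peroxide, carbon dioxide or boric acid. Plasma membrane intrinsic proteins (PIPs) carry most of the water that crosses the surface of leaf and root cells, and they form tetramers in which PIP1 proteins often need a PIP2 partner to reach the membrane. Tonoplast intrinsic proteins (TIPs) lie mainly in the vacuolar membrane, NOD26-like intrinsic proteins (NIPs) include the boric acid channels, and small basic intrinsic proteins (SIPs) are found in the endoplasmic reticulum. The pore is lined by a pair of short loops that usually carry the residues Asn-Pro-Ala, the NPA box.

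The coding sequence around this box is shown for some members whose transcripts moved in opposite directions or whose box departs from NPA. *PIP1.3*, a close relative of *PIP1.4* that was not called, is shown as well. Each stretch is coding-strand sequence of the RefSeq annotation of TAIR10.1, 5′ to 3′, with the 3 codons of the box in capitals and 12 bases on each side.
PIP1.1, first box: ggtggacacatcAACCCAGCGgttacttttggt
PIP1.3, first box: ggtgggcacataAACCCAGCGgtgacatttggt
PIP1.4, first box: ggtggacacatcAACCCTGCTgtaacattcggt
PIP1.5, first box: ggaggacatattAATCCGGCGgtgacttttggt
PIP2.1, first box: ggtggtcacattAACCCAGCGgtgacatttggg
PIP2.5, first box: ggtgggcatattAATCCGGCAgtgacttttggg
TIP1.2, first box: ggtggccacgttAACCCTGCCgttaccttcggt
TIP2.1, first box: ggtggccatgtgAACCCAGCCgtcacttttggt
NIP6.1, first box: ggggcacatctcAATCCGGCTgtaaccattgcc
NIP6.1, second box: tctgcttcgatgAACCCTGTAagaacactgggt
NIP5.1, first box: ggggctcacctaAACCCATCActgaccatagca
SIP1.2, first box: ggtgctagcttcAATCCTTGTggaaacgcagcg
All 13 PIPs and all 10 TIPs had 2 NPA boxes in the annotated protein. Several NIPs departed from this pattern, with NPA and Asn-Pro-Val in *NIP6.1* and Asn-Pro-Ser and Asn-Pro-Val in *NIP5.1*. The boxes were NPA and Asn-Pro-Gly in *NIP1.1* and *NIP1.2*, and Asn-Pro-Ser and NPA in *NIP7.1*. The other NIPs, *NIP2.1*, *NIP3.1*, *NIP4.1* and *NIP4.2*, had 2 NPA boxes. The first box was Asn-Pro-Thr in *SIP1.1*, Asn-Pro-Cys in *SIP1.2* and Asn-Pro-Leu in *SIP2.1*, while the second was NPA in all 3 SIPs. Among the PIPs and TIPs, the genes that were lower and those that were higher in *ref4-3* therefore coded for the same pair of boxes.

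Library totals ranged from 26060005 to 32879414 counts. Genes with at least 1 count numbered 33228, 27913 and 32015 in the wild-type libraries and 34258, 34087 and 34884 in the *ref4-3* libraries. Every mutant library thus detected more genes, which bears on members near the floor. Levels are given as CPM (counts scaled to a fixed library size) after scaling by TMM, a method that sets the typical gene equal between libraries. A count of 3, taken as the detection floor, corresponded to 0.0871 to 0.124 CPM on this scale, which covers counting error only. Differences were tested with edgeR's two-sided quasi-likelihood test, adjusted over all 23050 tested genes, and a gene was called when its adjusted p was under 0.05. The TMM factors were 0.875 to 0.961 in wild type and 1.05 to 1.12 in *ref4-3*. Scaling by library totals alone moved the median log2 fold change of all tested genes up by 0.25, and the lower share of all calls went from 58.2% to 25.7%. All 3 leaf markers examined were abundant, and *LHCB1.3* (a light-harvesting antenna protein, log2 fold change -0.90) and *RCA* (Rubisco activase, -1.38) were themselves lower in *ref4-3*, while *RBCS1A* (Rubisco small subunit, -0.58, adjusted p = 0.0595 by edgeR) was not called. The *LHCB1.3* call was lost without wild-type replicate 2, *ref4-3* replicate 2 or *ref4-3* replicate 3 (adjusted p up to 0.0744), and *RBCS1A* was called by the exact test and by DESeq2 (adjusted p = 0.0280 and 0.00958). The root endodermis and root hair markers *CASP1* to *CASP5*, *EXPA7* and *COBL9* lay between 0 and 0.618 CPM in every library. The other root marker on the list, the beta-glucosidase gene *BGLU23*, went from 22.2 ± 0.570 to 129 ± 44.9 CPM (SD, n = 3). It was called higher (log2 fold change 2.54, adjusted p = 0.00249 by edgeR). Of 9 markers of guard cells, phloem, xylem and epidermis, the phloem sucrose carrier gene *SUC2* was higher (log2 fold change 0.83), the epidermal factor gene *ATML1* was lower (-0.998) and 7 were not called. The part of cell composition in the aquaporin differences was not tested.

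Of the 28 tested aquaporin genes, 10 were lower in *ref4-3*, 2 were higher and 16 were not called. Over the whole table, 11.9% of tested genes were called lower and 8.52% higher, so that the 10 lower calls were a larger share than the background and the 2 higher calls a similar one. With a fold change above 2 required as well, 8 members were lower and 1 was higher, where 5.24% and 4.48% of all tested genes passed. The *ref4-3* libraries lay below all wild-type libraries for 14 tested members (22.8% of all tested genes) and above them for 6 (22.4%), and the genotypes overlapped for 8. The median log2 fold change was -0.30 over the 28 members and 0.01 over all tested genes. It was -1.21 for the 5 tested *TIP* genes, -0.33 for the 13 *PIP* genes, -0.27 for the 3 *SIP* genes and 0.30 for the 7 tested *NIP* genes. The last value rests on members with few counts, and the *NIP* median was -0.45 over genes with at least 10 counts in every library. In rosettes, fewer cells of a type and less RNA per cell cannot be told apart.

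**Figure D1:**
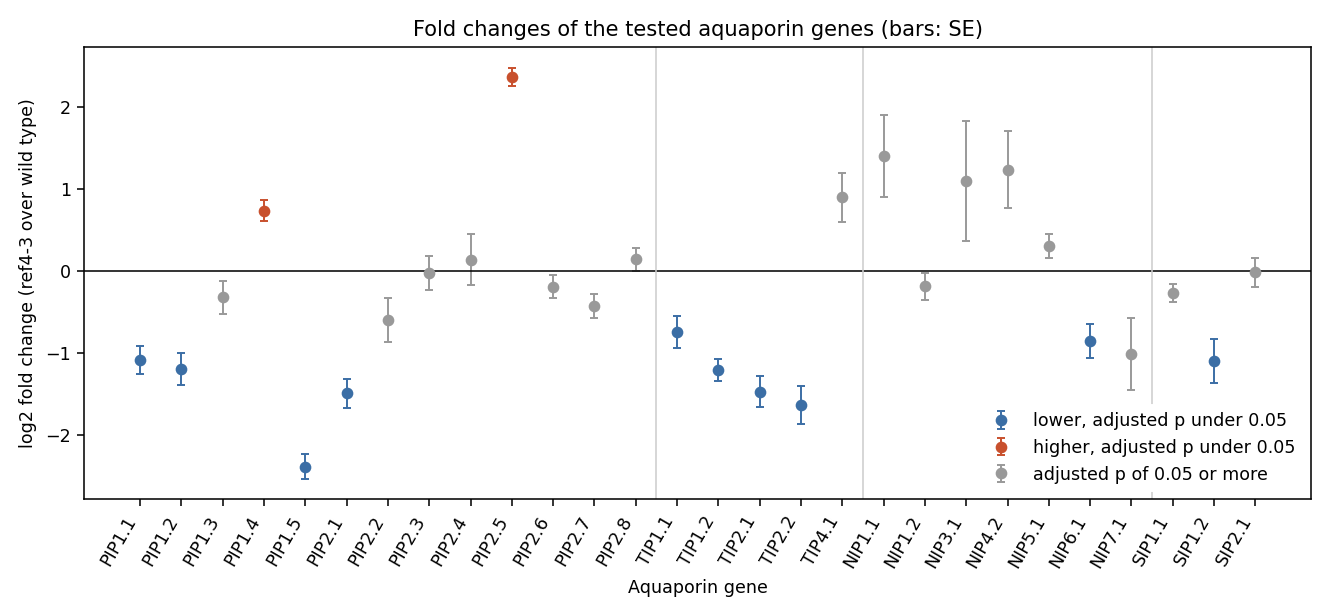
Log2 fold change of *ref4-3* over wild type for the 28 tested aquaporin genes (y axis, bars are the SE of the edgeR fit, n = 3 libraries per genotype), ordered by subfamily, with called genes coloured. The 10 lower calls spread over all subfamilies, the 2 higher calls are *PIP2.5* at 2.36 and *PIP1.4* at 0.73, and *PIP1.5* is the lowest at -2.39.

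The PIP1 subgroup held both directions: *PIP1.1*, *PIP1.2* and *PIP1.5* fell, *PIP1.4* rose and *PIP1.3* was not called. *PIP1.5* (AT4G23400, chromosome 4, 12220641 to 12222468, 4 exons) had 227, 234 and 191 CPM in the wild-type libraries and 36.4, 45.7 and 42.1 CPM in the *ref4-3* libraries. Its 3 mutant values were close together and far below every wild-type value, and the gene was 5.23-fold lower (log2 fold change -2.39, SE 0.148, adjusted p = 4.35e-04, edgeR). *PIP1.2* (AT2G45960, chromosome 2, 18910081 to 18911982), whose product passes water and is known for carbon dioxide uptake in leaves, had 512, 462 and 394 CPM in wild type against 236, 152 and 208 in *ref4-3*. The groups did not overlap, although the lowest mutant library, replicate 2, was well under the other two, and the log2 fold change was -1.20 (SE 0.193, adjusted p = 0.00879). *PIP1.1* (AT3G61430, chromosome 3, 22733243 to 22735394) had 167, 140 and 148 CPM in wild type against 79.2, 55.7 and 79.1 CPM in *ref4-3*. Here too replicate 2 was the lowest mutant library, and the gene was 2.13-fold lower (log2 fold change -1.09, SE 0.169, adjusted p = 0.00809).

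*PIP1.4* (AT4G00430, chromosome 4, 185285 to 187680), a gene known to be induced in Arabidopsis leaves by drought, had 125, 105 and 110 CPM in wild type against 189, 174 and 201 in *ref4-3*. Every mutant library was above every wild-type library, and the level was 1.66-fold higher (log2 fold change 0.73, SE 0.127, adjusted p = 0.0108). Without *ref4-3* replicate 3 its adjusted p was 0.0600 at a log2 fold change of 0.67. *PIP1.3* (AT1G01620, chromosome 1, 225665 to 227543) had 219, 256 and 312 CPM in wild type against 168, 200 and 260 in *ref4-3*. Its groups overlapped, and the difference was not past the threshold (log2 fold change -0.33, nominal 95% interval -0.72 to 0.07, adjusted p = 0.268).

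In the PIP2 subgroup 1 gene fell, 1 rose and 6 were not called. *PIP2.1* (AT3G53420, chromosome 3, 19803473 to 19805730, 5 exons), a main water channel of leaf and root cells that also acts in stomatal guard cells, had 636, 562 and 517 CPM in wild type. In *ref4-3* it had 234, 158 and 215 CPM, so that its highest mutant library lay under every wild-type library. The gene was 2.82-fold lower (log2 fold change -1.49, SE 0.180, adjusted p = 0.00413). *PIP2.5* (AT3G54820, chromosome 3, 20301759 to 20304309, 4 exons), like *PIP1.4* known to be induced by drought in leaves, went the other way. It had 14.3, 12.8 and 13.3 CPM in wild type against 73.0, 66.9 and 68.3 in *ref4-3*. Libraries of each genotype were within a narrow band, and the level was 5.15-fold higher (log2 fold change 2.36, SE 0.110, adjusted p = 2.03e-04).

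The other PIP2 genes with more than 50 CPM on average were *PIP2.6* and *PIP2.7*, and neither was called. *PIP2.6* (AT2G39010, chromosome 2, 16291280 to 16294101), a gene expressed mainly in leaves, had 454, 502 and 543 CPM in wild type against 467, 382 and 458 in *ref4-3*. The groups overlapped, and its log2 fold change was -0.20 with TMM (nominal 95% interval -0.47 to 0.08, adjusted p = 0.328) and 0.05 with library totals. *PIP2.7* (AT4G35100, chromosome 4, 16708361 to 16710407) had 210, 231 and 208 CPM in wild type against 138, 155 and 188 in *ref4-3*. All mutant libraries were below the wild type, but the difference did not pass the threshold (log2 fold change -0.43, adjusted p = 0.0745). *PIP2.2* (AT2G37170) and *PIP2.3* (AT2G37180) are neighbours on chromosome 2 with 94.8% identical coding sequence, so that reads may have been split between them and their values are uncertain. *PIP2.2* averaged 50.4 ± 3.13 CPM (SD, n = 3) in wild type and 33.1 ± 12.5 in *ref4-3*, with every mutant library below every wild-type library and the lowest, replicate 2, at 19.0 CPM. Its difference did not pass the threshold (log2 fold change -0.60, adjusted p = 0.144), and the log2 fold change was -0.32 without that library. *PIP2.3*, *PIP2.4* (AT5G60660) and *PIP2.8* (AT2G16850) lay between 0.921 and 10.7 CPM in the 6 libraries with overlapping groups. The sign for *PIP2.3* (-0.03 with TMM) turned with library totals (0.21).

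**Figure D2:**
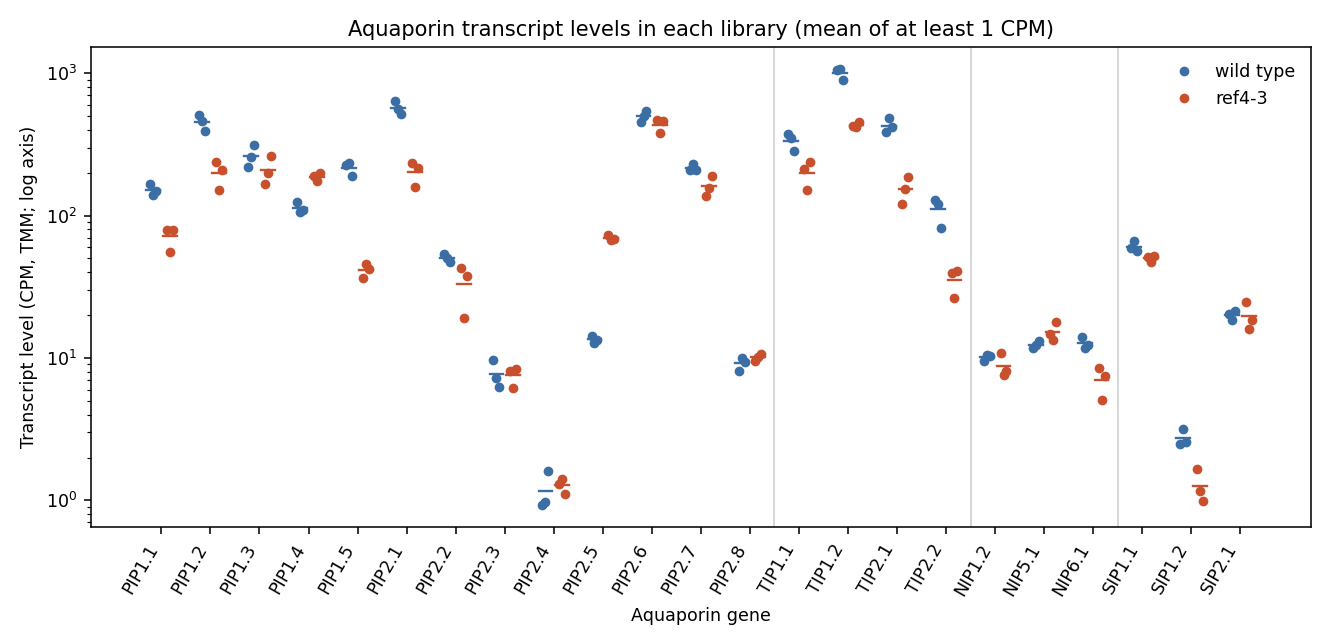
Transcript level in CPM (TMM, log axis) of the 23 aquaporin genes that averaged 1 CPM or more, in each of the 3 wild-type and 3 *ref4-3* libraries (points), with the genotype mean as a line. *TIP1.2* falls from about 1003 to 433 CPM on average, whereas *PIP2.5* rises from 13.5 to 69.4 CPM with little spread in either genotype.

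The 4 abundant *TIP* genes were all lower in *ref4-3*, and no *TIP* gene was called higher. *TIP1.2* (AT3G26520, chromosome 3, 9722443 to 9723904, 2 exons), a channel for water and hydrogen peroxide in the vacuolar membrane, had the highest level in the family. It had 1050, 1067 and 892 CPM in wild type against 425, 417 and 456 in *ref4-3*. The mutant libraries agreed closely and lay far under the lowest wild-type library (log2 fold change -1.21, SE 0.133, adjusted p = 0.00297, 2.32-fold lower). *TIP2.1* (AT3G16240, chromosome 3, 5505360 to 5507050, 3 exons), which passes ammonia as well as water, had 387, 481 and 416 CPM in wild type against 121, 154 and 187 in *ref4-3*. Its groups were well apart, with a 2.78-fold lower level (log2 fold change -1.48, SE 0.187, adjusted p = 0.00464). An antisense lncRNA, AT3G03265, covers 26.3% of this gene, and its own mean was 0.551 CPM (log2 fold change 0.03). The antisense protein-coding gene AT3G16250 overlaps 7.1% of *TIP2.1* and averaged 59.3 CPM (log2 fold change -0.03).

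*TIP2.2* (AT4G17340, chromosome 4, 9698940 to 9700472), known mainly from roots, had 129, 121 and 81.6 CPM in wild type against 39.4, 26.4 and 40.9 in *ref4-3*. It had the largest decrease of the *TIP* genes, 3.11-fold (log2 fold change -1.64, SE 0.233, adjusted p = 0.00635), and wild-type replicate 3 was the closest to the mutant. *TIP1.1* (AT2G36830, chromosome 2, 15445294 to 15446621), the other leaf vacuolar channel of its subgroup, had 374, 351 and 283 CPM in wild type against 213, 152 and 236 in *ref4-3*. The groups did not overlap, but the decrease was smaller (log2 fold change -0.75, SE 0.196, adjusted p = 0.0360). Leaving out single libraries ended this call in 5 of 6 fits, all but the fit without wild-type replicate 3, and the adjusted p was at most 0.0975. It was lost with library totals as well (adjusted p = 0.0838). *TIP4.1* (AT2G25810) was low, at 0.553 ± 0.0506 CPM in wild type and 1.04 ± 0.167 in *ref4-3* (n = 3), with mutant libraries above the wild type and an adjusted p of 0.0696 (edgeR, log2 fold change 0.90).

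The other 5 *TIP* genes were too low to test. *TIP3.1* and *TIP3.2*, which serve the protein storage vacuoles of seeds, *TIP1.3* and *TIP5.1*, known from pollen, and *TIP2.3*, known from roots, had between 0 and 0.371 CPM in each library. *TIP1.3* (AT4G01470) went from 0.0465 CPM, under the floor, to 0.23 CPM with no overlap of the groups. Seed storage and pollen markers were likewise low, with at most 1.82 CPM for the seed protein gene *CRU3* and 1.45 CPM for the pollen gene *VGDH1* in any library. Log2 fold changes were 1.37 for the seed gene *CRA1*, 1.35 for *CRU3*, 0.63 for the pollen gene *VGD1* and 1.46 for *VGDH1*. None of these was called, and the groups overlapped for *CRU3* and *VGD1* but not for *CRA1* and *VGDH1*. Only the pollen gene *PPME1*, not tested, had a lower mean in *ref4-3* (0.391 CPM in wild type against 0.195, overlapping). The part of seed or pollen tissue in the low *TIP* values was not tested.

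Of the *NIP* genes only *NIP6.1* was called. *NIP6.1* (AT1G80760, chromosome 1, 30350539 to 30352208, 5 exons) codes for a boric acid channel that delivers boron to young leaves. It had 13.97, 11.7 and 12.4 CPM in wild type against 8.54, 5.04 and 7.42 in *ref4-3*, with all mutant libraries below the wild type (log2 fold change -0.86, SE 0.206, adjusted p = 0.0282). The call was lost without wild-type replicate 1, *ref4-3* replicate 2 or *ref4-3* replicate 3, with adjusted p-values up to 0.0893, and with library totals (adjusted p = 0.0582). *NIP5.1* (AT4G10380), the boric acid channel of root uptake, had 11.7, 12.4 and 13.1 CPM in wild type against 14.7, 13.3 and 17.8 in *ref4-3*. Its mutant libraries lay above the wild type, but the difference was not past the threshold (log2 fold change 0.30, adjusted p = 0.166). With library totals *NIP5.1* was called higher (log2 fold change 0.55, adjusted p = 0.0343 by edgeR). *NIP1.2* (AT4G18910) was close between genotypes, with means of 10.08 and 8.83 CPM and a log2 fold change of -0.19 that became 0.06 with library totals.

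The remaining *NIP* genes, which are known from roots, anthers or pollen, were all under 1.2 CPM. No call was made for *NIP1.1* (AT4G19030, log2 fold change 1.4, adjusted p = 0.0841 by edgeR), *NIP3.1* (AT1G31885, 1.09, 0.301), *NIP4.2* (AT5G37820, 1.23, 0.0984) or *NIP7.1* (AT3G06100, -1.01, 0.132). *NIP4.1* (AT5G37810) was not tested and had 0.124 CPM in wild type against 0.578 in *ref4-3*, and *NIP2.1* (AT2G34390) had 0.0433 and 0.166 CPM. *NIP2.1* lies for 95.3% of its length under the antisense lncRNA AT2G08660, which averaged 1.84 CPM with a log2 fold change of 1.43. *NIP4.1* and *NIP4.2* share 88.1% of their coding sequence.

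Of the *SIP* genes only *SIP1.2* was called. *SIP1.1* (AT3G04090, chromosome 3, 1071984 to 1074244), the most abundant of the 3, had 58.8, 66.4 and 56.7 CPM in wild type against 51.2, 47.5 and 51.9 in *ref4-3*. Its mutant libraries were all lower, without passing the threshold (log2 fold change -0.27, adjusted p = 0.123). *SIP1.2* (AT5G18290, chromosome 5, 6055028 to 6058368) had 2.48, 3.16 and 2.56 CPM in wild type against 1.66, 1.166 and 0.989 in *ref4-3*. The groups were apart and the gene was called lower (log2 fold change -1.10, SE 0.265, adjusted p = 0.0282). That call was lost without wild-type replicate 2, *ref4-3* replicate 2 or *ref4-3* replicate 3, with adjusted p-values up to 0.105. The antisense gene AT5G18300 overlaps 13.3% of *SIP1.2* and had a mean of 0.950 CPM and a log2 fold change of -0.72. *SIP2.1* (AT3G56950) averaged 20.04 ± 1.47 CPM in wild type and 19.8 ± 4.6 in *ref4-3* (SD, n = 3), with overlapping groups. Its end overlaps the antisense gene AT3G56940, which had 819 CPM on average and a log2 fold change of -1.06. The level of *SIP2.1* may therefore hold reads of that gene, depending on how strand was handled in counting.

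Close relatives were compared within each library as a ratio, which does not depend on how libraries are scaled. Each called member was set against the tested member with the most similar coding sequence, which gave 9 pairs. An exact permutation test of 3 against 3 cannot go below p = 0.1, and that value was reached for 7 of the 9 pairs (adjusted p = 0.129 over the 9). Each pair holds a gene called in these same libraries, so that separated ratios were favoured in advance and lend the calls no support. *PIP1.4* and *PIP1.3*, whose proteins are 97.6% identical, had ratios of 0.570, 0.411 and 0.351 in wild type and 1.13, 0.871 and 0.772 in *ref4-3*. All mutant ratios were higher, a shift of 1.07 on the log2 scale. The ratio of *PIP1.5* to *PIP1.1*, with 92.3% protein identity, was 1.36, 1.67 and 1.28 in wild type and 0.459, 0.821 and 0.532 in *ref4-3*, so that the more abundant of the pair by counts changed place in every mutant library. *PIP2.1* over *PIP2.2* shifted by -0.82, *PIP2.5* over *PIP2.6* by 2.56, *NIP6.1* over *NIP5.1* by -1.18 and *SIP1.2* over *SIP1.1* by -0.86, each without overlap of the genotypes. *TIP1.1* over *TIP1.2* shifted by 0.45, from ratios of 0.318 to 0.356 in wild type to ratios of 0.364 to 0.519. For *PIP1.1* over *PIP1.2* and *TIP2.1* over *TIP2.2* the ratios of the genotypes overlapped (shifts 0.11 and 0.14, exact permutation p = 0.4 and 0.7).

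Summed over all 35 genes, aquaporin transcripts made up 0.451%, 0.413% and 0.395% of the counts in the wild-type libraries and 0.273%, 0.254% and 0.309% in the *ref4-3* libraries. The sum averaged 4569 ± 241 CPM for wild type and 2558 ± 271 for *ref4-3* (TMM, SD, n = 3) and had thus decreased by 44.0%, or by 33.6% with library totals. *TIP* transcripts decreased by 56.1% in sum (change of -47.9% with library totals) and *PIP* transcripts by 36.6% (change of -24.9%). The *NIP* sum overlapped between genotypes, at 36.8 ± 0.547 and 33.9 ± 4.32 CPM, and its change of -7.95% turned to 9.06% with library totals. The *SIP* sum changed by -14.6% with TMM and by 1.36% with library totals. These sums follow their most abundant members and carry no test.

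Levels were compared between genes as CPM per kb of annotated exon. In wild type, *TIP1.2* led with 778 ± 74.7 CPM per kb, followed by *PIP2.1* (363 ± 38.2) and *TIP2.1* (360 ± 40.6), which did not differ beyond their spread, and then by *PIP1.2* (286 ± 37.3), *TIP1.1* (272 ± 38.2) and *PIP2.6* (233 ± 20.6). In *ref4-3*, *TIP1.2* still led with 335 ± 15.7, and *PIP2.6* came second with 203 ± 21.8. *TIP1.1* (162 ± 35.3), *PIP1.3* (135 ± 30.2), *TIP2.1* (129 ± 28), *PIP2.1* (129 ± 25.2) and *PIP1.2* (125 ± 26.7) followed and did not differ from their neighbours in the order beyond their spread. *PIP2.5* moved from place 17 to place 12 among the 35 genes and *PIP1.5* from place 8 to place 13. Per length, *TIP* genes supplied 47.4% of the wild-type pool and 39.2% of the mutant pool, and *PIP* genes 49.8% and 56.2%.

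**Figure D3:**
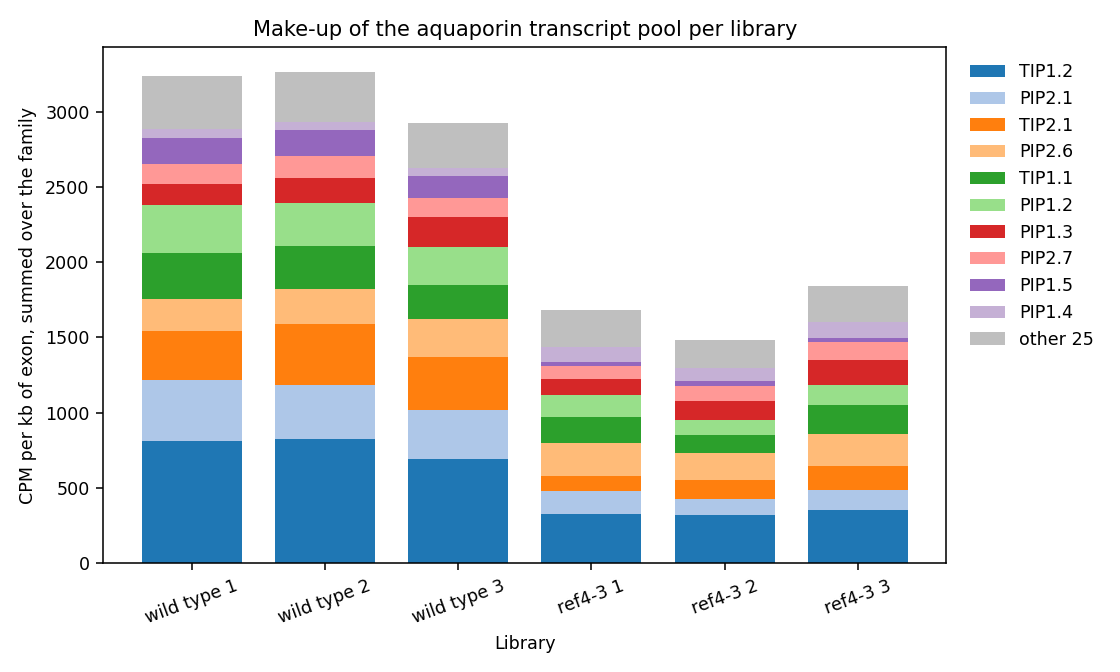
Aquaporin transcript pool of each library as CPM per kb of exon (y axis), stacked by gene for the 10 genes with the highest mean and the other 25 together. The wild-type stacks reach 2927 to 3264 and the *ref4-3* stacks 1485 to 1842, and the *TIP1.2*, *PIP2.1* and *TIP2.1* segments shrink while the *PIP1.4* segment widens.

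By level, the calls lay mainly among the deeply counted members. Of the 13 members that averaged 50 CPM or more, 8 were lower, 1 was higher and 4 were not called, with a median log2 fold change of -1.09. All 4063 tested genes of that level had a median of -0.17, with 22.3% lower and 7.36% higher. Of the 10 members between 1 and 50 CPM, 2 were lower and 1 was higher, with a median of -0.02, beside 12% and 8.91% of the 14990 genes at that level. None of the 5 tested members under 1 CPM was called by edgeR's quasi-likelihood test, although 3 had an unadjusted p under 0.05. Of all 3997 tested genes at that level, 0.801% were lower and 8.23% higher. The median log2 fold change at that level was 0.88 over all tested genes and 1.09 over the 5 members. Of the 5 members, edgeR's exact test called *TIP4.1* and *NIP1.1* higher (adjusted p = 0.0374 and 0.0284).

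**Figure D4:**
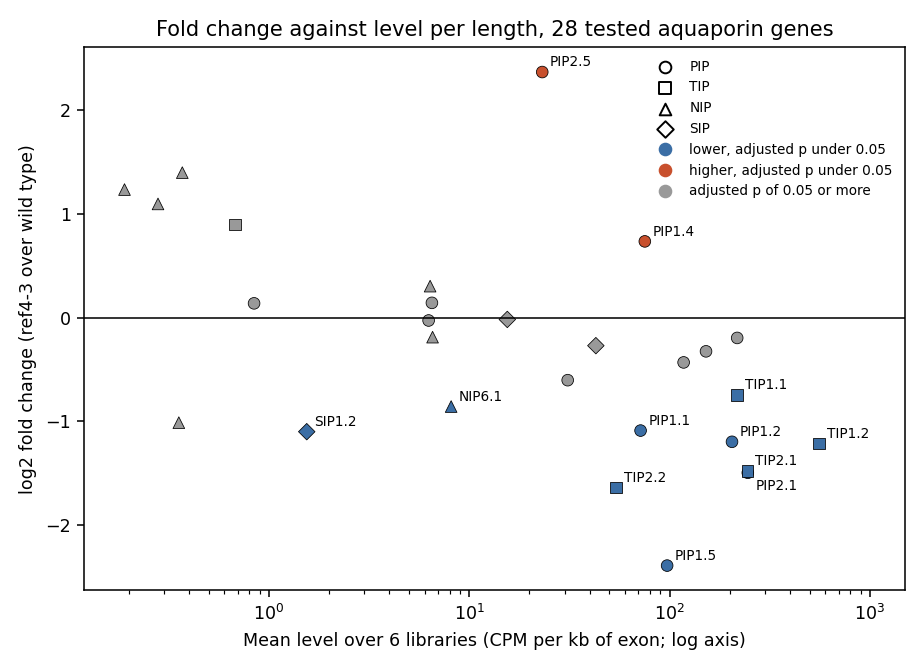
Log2 fold change of *ref4-3* over wild type (y axis) against the mean level over the 6 libraries in CPM per kb of exon (log x axis) for the 28 tested aquaporin genes, with shape for subfamily and colour for the call. The lower calls of *PIP* and *TIP* genes lie at the right, *PIP1.4* and *PIP2.5* are the higher calls, and the uncalled *NIP* and *TIP* genes at the left have low counts.

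Genes that work with aquaporins were set beside them, against a background of 11.9% of all tested genes called lower and 8.52% called higher. Of the 11 plasma membrane proton pumps, which power transport across that membrane, only *AHA2* was called (173 ± 36.3 CPM in wild type and 111 ± 3.02 in *ref4-3*, log2 fold change -0.64, adjusted p = 0.0385). Of 3 tonoplast proton pump genes, *VHA-a3* was called lower (log2 fold change -0.52, adjusted p = 0.0430). Both calls were lost in 5 of the 6 fits that left out a library, all but that without wild-type replicate 3. They were also lost with library totals (adjusted p = 0.127 for *AHA2* and 0.175 for *VHA-a3*) and with at least 10 counts in every library (0.0513 and 0.0541). Of 6 tested boron exporters, *BOR5* was higher (log2 fold change 0.70, adjusted p = 0.0111, and 0.0564 without *ref4-3* replicate 3), and no other passed.

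Of 9 proteins known to act on aquaporins in Arabidopsis, 2 were higher and 2 were lower at the transcript level, beside 8.52% and 11.9% of all tested genes. The other 5 were not called, and the kinase gene *CPK7* was closest to the threshold (log2 fold change -0.64, adjusted p = 0.0502 by edgeR). *TSPO*, a membrane protein that binds PIP2.7 and directs it to degradation, had 0.730, 0.417 and 0.537 CPM in wild type against 7.35, 6.1 and 7.94 in *ref4-3*. Its mutant libraries lay far above the wild type, at a level about 12.6-fold higher (log2 fold change 3.65, adjusted p = 5.53e-04). *OST1*, the kinase of stomatal closure that phosphorylates PIP2.1, had 13.1, 13.4 and 15.8 CPM in wild type against 32.2, 55.1 and 44.1 in *ref4-3* (log2 fold change 1.63, adjusted p = 0.00439). *RMA1*, a ubiquitin ligase that acts on PIP2.1, was lower at 56.2 ± 18.7 against 18.2 ± 6.22 CPM (log2 fold change -1.63, adjusted p = 0.0160). Its call was lost without *ref4-3* replicate 2 or *ref4-3* replicate 3, with adjusted p-values of 0.0580 and 0.0653. *SYP121*, a syntaxin needed for the delivery of PIP2.7 to the plasma membrane, was lower too (log2 fold change -1.38, adjusted p = 0.0420), but wild-type replicate 2 stood out with 214 CPM beside 70.1 and 101. Without that library its log2 fold change was -0.82, and the call was lost without wild-type replicate 3 or any of the *ref4-3* replicates, with adjusted p-values up to 0.126.

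Promoters of the members, from 250 bases before to 50 bases after the annotated start, were searched on both strands for 3 motifs known from light, abscisic acid and clock responses. The G-box CACGTG was found in none of the 28 tested members, beside 8.69% of 21792 promoters of tested genes. It was found in 1 of the 7 members that were not tested, *TIP3.2*, beside 7.68% of all 27443 promoters of the annotation. Its core ACGTG, which every G-box also holds, was found in the tested *TIP1.1* and *SIP1.1*, beside 27.9% of the promoters of tested genes. It was also found in 4 members that were not tested, beside 26.7% of all promoters. The evening element AAAATATCT was found in none of the 35, beside 2.82% of all promoters. These are matches of letters only.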

How the data were processed

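The deposited values are raw counts per gene, which the authors made from poly(A) RNA libraries of a directional kit. The submitters' processing notes name fastp 0.23.2, HISAT2 2.2.1, SAMtools 1.17, DESeq2, limma and the build TAIR10. How strand and multi-mapping reads were handled in counting is not given in the sources used here. The labels call the libraries of a genotype biological replicates. All 6 sample columns were used, and 0 others were present.

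Genes were kept by filterByExpr of edgeR 4.0.16 in R 4.3.3 (minimum count 10, minimum total 15), scaled by TMM and tested by quasi-likelihood (two-sided), with p-values adjusted over 23050 genes after Benjamini and Hochberg. The procedure was run on simulated counts with changes of equal size in either direction, which cannot check how calls depend on scaling. The SE is the log2 fold change divided by the square root of F, and intervals are nominal 95% normal intervals from it. They are narrower than the quasi-likelihood test implies. For *PIP2.2* the interval was -1.13 to -0.07, while the unadjusted p of that test was 0.0584. Paralog ratios used the exact two-sided permutation test of scipy 1.17.1. Alternatives were the exact test, DESeq2 1.42.0, RLE factors, other filters, no organelle genes, a replicate block, library totals (chosen after the data had been seen) and fits without each library in turn.

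The members and all lists were chosen with earlier results of these data known. Values per library are given for called members, for those averaging 50 CPM or more and for *NIP5.1*, which was set beside *NIP6.1*. For related lists at most 4 called genes in each direction are given. Coordinates, exon lengths and sequences come from RefSeq's annotation of TAIR10.1, to which 36632 of 36796 genes and all 35 members were matched, and were read with pandas 2.3.3 and biopython 1.88 in Python 3.11.15. The paralog pairs and level classes were set after the values had been seen.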

Additional observations from a re-analysis of the deposited data

How the results depend on the processing

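The 7 lower calls of *PIP1.1*, *PIP1.2*, *PIP1.5*, *PIP2.1*, *TIP1.2*, *TIP2.1* and *TIP2.2* and the higher call of *PIP2.5* held in all 14 alternatives. Across alternatives that left out a library, 7 to 10 members were lower and 1 to 3 higher, and the whole table had 588 to 2910 lower and 420 to 1729 higher calls (2737 and 1964 with all libraries). The fewest came without *ref4-3* replicate 3. The lower calls of the whole table numbered 1757 without *ref4-3* replicate 1 and 1028 without *ref4-3* replicate 2. The higher calls were 1103 without wild-type replicate 2, 1119 without *ref4-3* replicate 1 and 857 without *ref4-3* replicate 2.

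With library totals the whole table had 1518 lower and 4387 higher calls, and with a fold change above 2 it had 1207 and 1033. With library totals 8 members were lower, as *TIP1.1* and *NIP6.1* passed no longer. Members called higher numbered 4 with the exact test, 5 with library totals and 1 with a fold change above 2. The median log2 fold change of the family was -0.13 with no filter, -0.045 with library totals and -0.41 to -0.22 without single libraries. For *PIP* genes it was -0.070 with library totals and -0.52 to -0.22 without single libraries. For *TIP* genes it was 0.56 with no filter, where 5 near-silent genes enter, -0.96 with library totals and -1.26 to -0.94 without single libraries. For *NIP* genes it was 1.00 with no filter, -0.45 with at least 10 counts in every library, 0.55 with library totals and 0.17 to 0.77 without single libraries. For *SIP* genes it was -0.021 with library totals. Summed levels with library totals changed by -33.6% (family), -24.9% (*PIP*), -47.9% (*TIP*), 9.06% (*NIP*) and 1.36% (*SIP*).

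Signs turned for uncalled members. *PIP2.3* was at 0.044 with at least 10 counts in every library, 0.21 with library totals and -0.19 to 0.14 without single libraries. *SIP2.1* was at 0.053, 0.22 and -0.22 to 0.12 under the same settings. With library totals *PIP2.6* was at 0.051 and *NIP1.2* at 0.056, and *PIP2.4* was at -0.034 to 0.39 without single libraries. Of 389 member values under alternatives, 11 turned sign, 16 lost and 6 gained a call. The cause was not tested.

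The deviations of wild-type and *ref4-3* libraries with the same replicate number correlated at -0.074, -0.048 and 0.193. Those with different numbers correlated at -0.087 to 0.134. Whether libraries of the 2 genotypes share a batch was not tested. With a replicate block the whole table had 2064 lower and 1298 higher calls, and the members had 8 and 2, as *TIP1.1* and *SIP1.2* passed no longer (adjusted p = 0.0613 and 0.0546). Of the other genes named, the block ended the calls of *AHA2*, *VHA-a3* and *SYP121* (adjusted p = 0.0682, 0.0607 and 0.0690) and *RBCS1A* passed (0.0342). With 3 pools per genotype and no record of strand handling, members under 1 CPM and those with antisense or near-identical neighbours are the least secure.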
